A study of Mus musculus with 20 samples.

Results

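Heme synthesis in mouse blood was followed through 9 genes, chosen by name: Alas2, Alad, Uros, Urod, Cpox, Ppox and Fech, which code for enzymes of the pathway, and Slc25a38 and Slc25a37, which code for mitochondrial carriers that feed it. They are 9 of the 31093 genes or transcripts named on the array and had 12 of its 39429 non-control probes, and every one of those probes was taken. Alad, Uros and Slc25a37 had a pair of probes each and the other genes had 1. Whole blood was drawn from male mice 24 h after a dose of X-rays to the whole body of 7 Gy, or after a sham exposure (0 Gy). The mice were either wild-type C57BL/6 (WT) or Il10-/- (B6.129P2-Il10tm1Cgn/J), which lack the anti-inflammatory cytokine interleukin 10 in all cells and serve as a model of inflammatory bowel disease. Each of the 4 groups (WT 0 Gy, WT 7 Gy, Il10-/- 0 Gy and Il10-/- 7 Gy) had 5 arrays, listed as 1 array per mouse, with no pooling of mice. The RNA had been depleted of globin transcripts before labelling, and 20 arrays were hybridized in 1 colour. All values below are log2 intensities relative to the median probe of the same array, so an increase of 1 is a doubling.

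The single probe for Il10 read well above background for 0 of 10 WT arrays (medians of -1.72 at 0 Gy and -1.63 at 7 Gy) and for 10 of 10 Il10-/- arrays (medians of 2.72 and 2.86). The sources used here do not say whether this probe lies inside the altered segment of the gene, and a probe outside it does not test the knockout. Every direction between genotypes given below therefore rests on the labels. Globin probes remained bright in spite of the depletion, with a mean of 5 globin genes between 13.24 and 15.35 on all 20 arrays. The share of spots well above background was 29.9% on WT 0 Gy replicate 5 and 34.6% on Il10-/- 7 Gy replicate 3, and between 38.5% and 57.8% on the other arrays. Each of 5 slides held 1 array of every group. Over the member probes, replicates 1 and 2 of a group differed by a median of 0.06 to 0.22, and the 36 remaining pairs of arrays of 1 group by 0.19 to 1.90. They were kept as separate mice, as listed, and p-values measure only the spread between these arrays. Over 16 liver genes, replicates 1 and 2 had means of 10.53 and 10.56 in WT 7 Gy and 8.79 and 8.82 in Il10-/- 7 Gy. The 0 Gy pairs were as close (1.59 and 1.65 in WT, 1.88 and 1.91 in Il10-/- mice). The other WT 7 Gy arrays ran from 2.39 to 7.85. Whether replicates 1 and 2 come from 1 mouse was not tested. If they do, each group holds fewer than 5 mice, and the p-values below count too many.

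Heme is the iron-containing ring that carries oxygen in hemoglobin. Its synthesis begins in the mitochondrion, continues in the cytosol and ends in the mitochondrion again, and red cell precursors are the main site of production. In blood, the immature red cells (reticulocytes) still contain RNA and mitochondria from the last stages of this work, whereas mature mouse red cells contain neither a nucleus nor mitochondria. Alas2, the red cell form of aminolevulinate synthase, catalyses the first and rate-limiting step from glycine, which Slc25a38 imports. Alad, Uros and Urod act in the cytosol, Cpox and Ppox act at the mitochondrion, Slc25a37 (mitoferrin 1) imports iron, and Fech (ferrochelatase) inserts that iron into the finished ring.

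The members are read through 60-base probes, 3 of which are printed because the contrasts below turn on where in a transcript a probe lies and on Alas2 as the reference gene. The Alas2 probe lies at chrX:147004993-147005052 on the plus strand, the proximal Slc25a37 probe at chr14:69902797-69902856 and the proximal Alad probe at chr4:62172559-62172618, both on the minus strand, in the build mm9 that the array files use. Sequences are the deposited probe sequences, 5' to 3'.
Alas2: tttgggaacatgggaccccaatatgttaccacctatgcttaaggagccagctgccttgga
Slc25a37 proximal: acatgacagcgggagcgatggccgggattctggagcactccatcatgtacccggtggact
Alad proximal: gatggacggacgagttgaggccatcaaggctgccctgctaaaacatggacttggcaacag
The distal Slc25a37 probe lies at chr14:69860020-69860079 and starts at position 3990 of its transcript, against position 304 for the proximal probe. The distal Alad probe lies at chr4:62169463-62169522, at transcript position 2031 against 787. The Uros probes were designed on transcript variant 1 (chr7:140878069-140878128) and on transcript variant 3 (chr7:140883817-140883876). The remaining probes lie at chr4:116662850-116662909 for Urod, chr16:58680403-58680465 for Cpox and chr9:120033376-120033435 for Slc25a38. The array files give no position for Ppox, and that of Fech is not printed here.

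Promoter windows from RefSeq (GRCm38.p6, 250 bases before to 50 after a transcript start) were matched for 7 of the 9 genes, with 9 windows in all. A GATA motif, the letters AGATAA or TGATAA on either strand, was present in 3 of these 9 windows, 1 each of Alas2, Cpox and Uros, and in 18.6% of all 32851 promoter windows. GATA motifs are bound by GATA1, the main transcription factor of red cell precursors, but a match of letters is a description and not a site. The 3 windows are printed for the 250 bases upstream of the start, with the GATA motif in capitals. Of these genes, Uros was called after irradiation in Il10-/- mice only, and Alas2 and Cpox in neither genotype. Under some alternatives given below Cpox was called, and a call of Uros was lost. The Alas2 window is chrX:150547167-150547416 (plus strand), the Cpox window chr16:58669958-58670207 (plus strand) and the second Uros window chr7:133702501-133702750 (minus strand).
Alas2: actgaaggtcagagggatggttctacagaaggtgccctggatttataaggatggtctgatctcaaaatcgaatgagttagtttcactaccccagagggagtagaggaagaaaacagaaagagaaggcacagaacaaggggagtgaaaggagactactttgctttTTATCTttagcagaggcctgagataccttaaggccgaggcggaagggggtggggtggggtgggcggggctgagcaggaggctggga
Cpox: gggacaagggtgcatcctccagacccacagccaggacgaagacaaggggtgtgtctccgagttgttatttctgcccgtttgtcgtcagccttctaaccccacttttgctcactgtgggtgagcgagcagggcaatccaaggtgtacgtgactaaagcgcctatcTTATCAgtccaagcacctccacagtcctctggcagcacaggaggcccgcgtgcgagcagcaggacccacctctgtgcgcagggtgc
Uros: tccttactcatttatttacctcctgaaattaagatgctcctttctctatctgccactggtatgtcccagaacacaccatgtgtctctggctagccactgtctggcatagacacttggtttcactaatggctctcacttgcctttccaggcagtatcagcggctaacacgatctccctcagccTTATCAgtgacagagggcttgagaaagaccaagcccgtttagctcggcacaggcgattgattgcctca
In the Alas2 and Cpox windows the motif began 86 bases before the start, and in the Uros window 68 bases before it, in each case on the minus strand relative to the gene. The Cpox window held a second match after the start. The Cpox window was also the 1 window of the 9 with a CACCC motif (CACACCC or CGCACCC), which was found in 11.5% of all windows. The NF-E2 motif TGAGTCA was in 0 of the 9 windows and in 5.20% of all windows.

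After irradiation, the distal probe of the iron importer was called lower in both genotypes, and its proximal probe in neither. Probes of 2 cytosolic enzymes, Urod and Uros, were called lower in Il10-/- mice. Their probes also lay lower in WT, without a call. No difference of Alas2 was called, and no member's dose response was called different between genotypes. In WT mice, 1 of the 11 member probes tested was called, the distal probe of Slc25a37, which fell 9.54-fold. Of the 11 in Il10-/- mice, 4 were called and all fell: Urod 5.77-fold, Slc25a37 (distal probe) 5.52-fold, and Uros 2.55-fold by its variant 1 probe and 3.67-fold by its dim variant 3 probe, which was well above background on 1 of 5 irradiated arrays. A probe was called when limma gave p below 0.001 and a Benjamini-Hochberg adjusted p (false discovery rate) below 10% over all 18587 features tested. Of those features, 6.80% were called in WT and 9.16% in Il10-/- mice, with 2.32% and 5.87% called lower and 4.48% and 3.29% called higher. Of these calls 65.9% were higher in WT and 35.9% in Il10-/- mice, against 51.1% in WT when arrays were scaled to their 75th percentile and 52.0% in Il10-/- mice with the authors' processed values. Without WT 0 Gy replicate 5, the array with the fewest spots above background, 878 features were called lower and 695 higher in WT (44.2% higher), in place of 431 and 832. The median difference of the 11 member probes was -0.74 in WT and -0.88 in Il10-/- mice, against -0.02 and -0.10 over all features. The groups did not overlap for 3 member probes in WT and 4 in Il10-/- mice, against 16.1% and 17.0% of all features. In each genotype 10 of 11 member probes had a difference below 0, against 50.9% and 55.1% of all features. In WT this count was 5 of 10 after normexp background correction, which moved the median of all features to 0.65, and 6 of 11 with liver and heart muscle signals as covariates. With those covariates 0 member probes were called in WT by limma (0 of 11 had an unadjusted p below 0.05, and 13 of all features were called), and after normexp 0 were called in Il10-/- mice (2 of 10 below 0.05, and 0 of all 11433 features called).

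**Figure D1:**
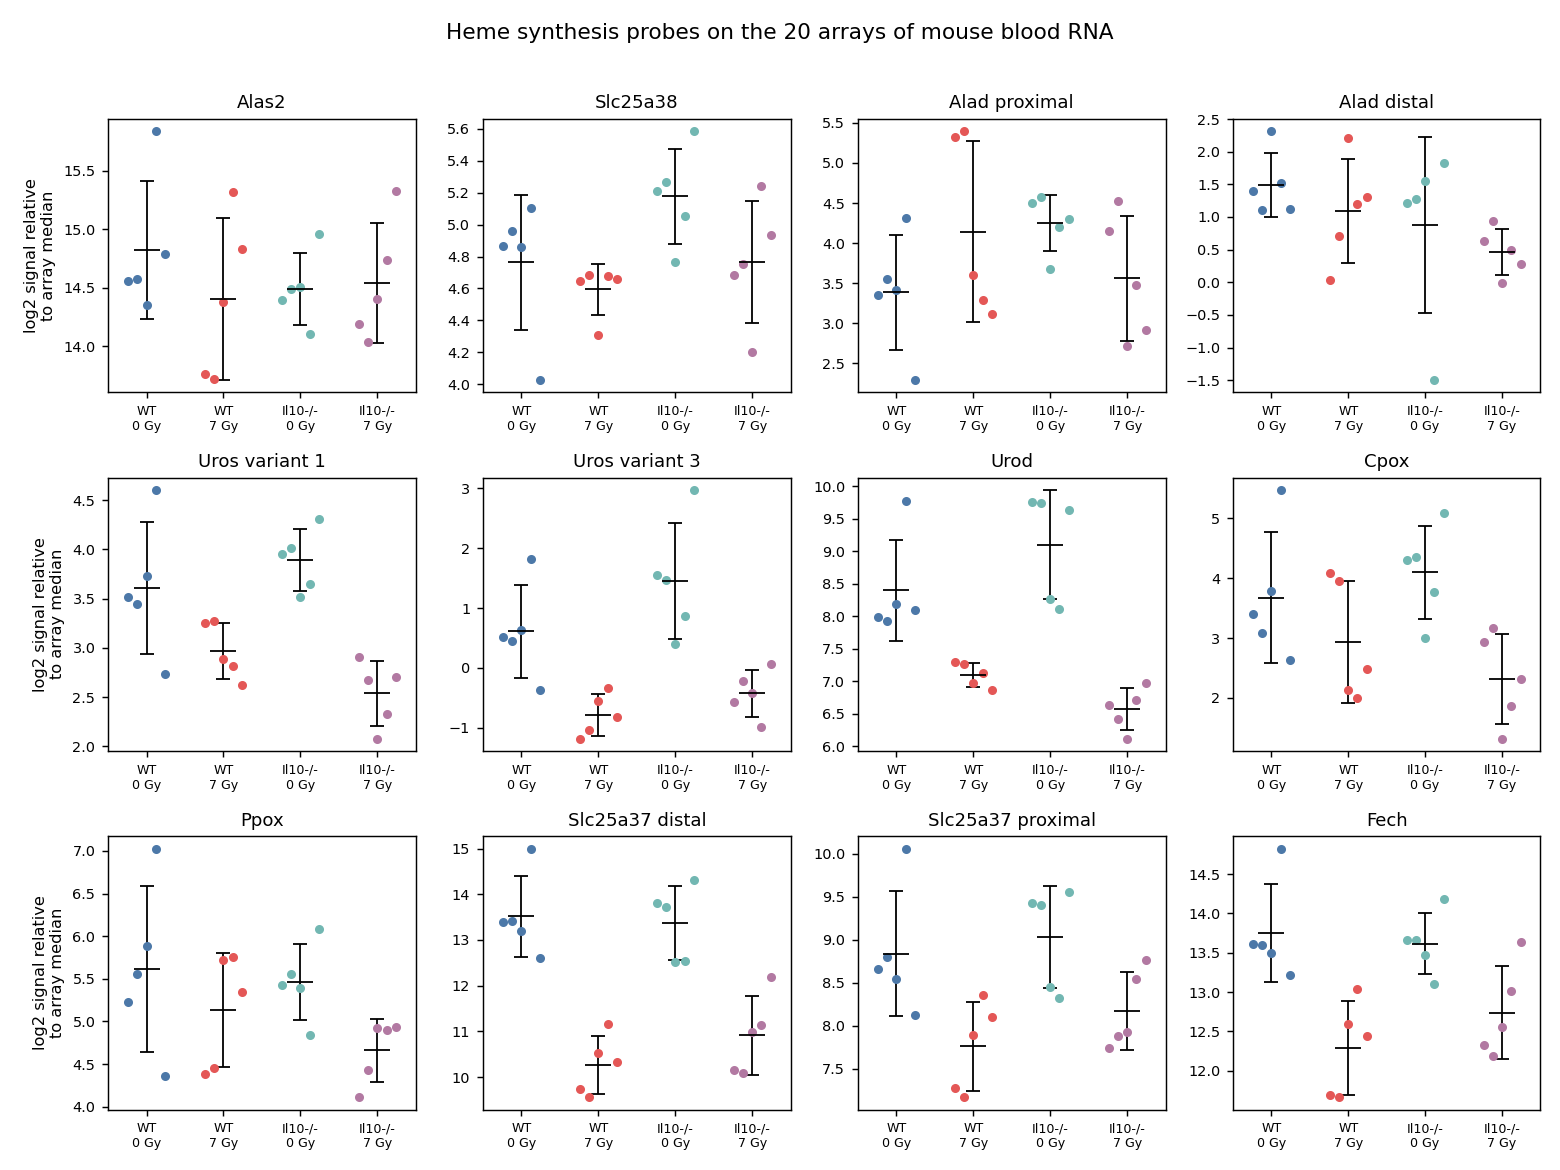
Log2 signal relative to the array median (vertical axis, 1 scale per panel) for the 12 heme synthesis probes in the 4 groups of 5 arrays. Points are arrays in replicate order from left to right, and bars are the mean and SD. The irradiated groups of Urod and distal Slc25a37 lie below both unirradiated groups, whereas the 4 groups of Alas2 overlap.

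Liver and heart muscle transcripts were present in some of these blood samples, unequally between groups. The mean of 16 liver genes, among them Alb (albumin) and Apoa1, ranged from 0.05 to 1.65 in WT 0 Gy, from 2.39 to 10.56 in WT 7 Gy, from 1.70 to 8.93 in Il10-/- 0 Gy and from 1.63 to 8.82 in Il10-/- 7 Gy. The corresponding mean of 10 heart muscle genes ranged from -0.50 to 2.20, from 0.13 to 6.75, from -0.80 to 2.95 and from 1.49 to 6.56. Of the liver genes, 6 to 12 were well above background in WT 0 Gy, 13 to 16 in WT 7 Gy, 10 to 16 in Il10-/- 0 Gy and 5 to 16 in Il10-/- 7 Gy. The liver mean did not overlap between the WT groups, so in WT the covariate fit separates it poorly from dose. Its part in the results was not tested beyond the covariate fit. Markers of red cell precursors (22 genes) moved as well, with list means of 4.66 to 6.55 in WT 0 Gy against 3.67 to 4.70 in WT 7 Gy, and 4.93 to 6.58 against 3.71 to 4.84 in Il10-/- mice. In bulk blood, fewer cells of a type and less RNA per cell cannot be told apart.

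Alas2, the erythroid entry enzyme, was not called in any comparison. On replicates 1 to 5 its signal was 14.56, 14.58, 14.35, 15.84 and 14.79 in WT 0 Gy and 13.77, 13.72, 14.38, 15.32 and 14.84 in WT 7 Gy. At 0 Gy in Il10-/- mice it was 14.39, 14.49, 14.51, 14.10 and 14.96, and it was 14.19, 14.03, 14.41, 14.74 and 15.32 at 7 Gy. The groups overlapped in each comparison, and no member spot was saturated. The difference after 7 Gy was -0.42 in WT (95% interval -1.34 to 0.50, adjusted p = 0.57 by limma) and 0.05 in Il10-/- mice (-0.56 to 0.65, adjusted p = 0.92). In WT its sign turned after normexp (0.55, SE 0.53) and with the tissue covariates (1.73, SE 1.11), and in Il10-/- mice after normexp (-0.27, SE 0.76). A fall as large as that of distal Slc25a37 lay outside both intervals.

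Slc25a38, the carrier at the entry of the pathway, varied least. On 3 of 20 arrays it lay 1.5-fold or more away from its median, and it was therefore left out of the tests by the variation filter. Its signal ranged from 4.03 to 5.10 in WT 0 Gy, 4.31 to 4.68 in WT 7 Gy, 4.77 to 5.58 in Il10-/- 0 Gy and 4.20 to 5.24 in Il10-/- 7 Gy, and the groups overlapped in each comparison made. In a fit without that filter the difference after 7 Gy was -0.17 (SE 0.33) in WT and -0.41 (SE 0.23) in Il10-/- mice, with adjusted p of 0.80 and 0.24.

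Alad, aminolevulinate dehydratase, joins a pair of the molecules that Alas2 makes, and no difference of its probes was called. The proximal probe was 3.36, 3.55, 3.41, 4.31 and 2.30 on WT 0 Gy replicates 1 to 5 and 5.32, 5.40, 3.60, 3.29 and 3.11 on WT 7 Gy. The 2 highest values of all 20 arrays were WT 7 Gy replicates 1 and 2. These 2 arrays also had the highest liver means (10.53 and 10.56) and heart muscle means (6.75 on each) of all 20. The part of those tissues in the Alad values was not tested beyond the covariate fit. The difference was 0.76 (SE 0.53, adjusted p = 0.38) in WT and -0.69 (SE 0.36, adjusted p = 0.18) in Il10-/- mice. With the tissue covariates the Il10-/- difference was -1.62, again without a call. In WT it ran from 0.08 to 1.14 over the alternatives other than leaving out each array in turn, also without a call. The distal probe was dim, with 15 of 20 arrays well above background, and differed by -0.40 (SE 0.44) in WT and -0.41 (SE 0.53) in Il10-/- mice.

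Uros, which closes the ring as uroporphyrinogen III, fell in irradiated Il10-/- mice by both of its probes. The variant 1 probe was 3.95, 4.02, 3.51, 3.65 and 4.31 in Il10-/- 0 Gy and 2.90, 2.67, 2.08, 2.33 and 2.71 in Il10-/- 7 Gy. These groups did not overlap, and the difference was -1.35 (SE 0.24, adjusted p = 0.0029), with lower signal at 7 Gy on 5 of 5 slides. In WT the same probe was 3.52, 3.45, 3.73, 4.60 and 2.73 at 0 Gy and 3.25, 3.28, 2.89, 2.82 and 2.62 at 7 Gy, overlapping groups that differed by -0.64 (SE 0.40, adjusted p = 0.32). The call in Il10-/- mice was lost after normexp (-0.69) and with the tissue covariates (-1.67, adjusted p = 0.058).

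The variant 3 probe of Uros was measured on fewer arrays, with 4 WT 0 Gy arrays, 1 WT 7 Gy array, 5 Il10-/- 0 Gy arrays and 1 Il10-/- 7 Gy array well above background. Its signal was 1.55, 1.47, 0.39, 0.88 and 2.97 in Il10-/- 0 Gy and -0.57, -0.21, -0.41, -0.98 and 0.06 in Il10-/- 7 Gy, without overlap. In WT it was 0.52, 0.46, 0.64, 1.81 and -0.37 at 0 Gy and -1.18, -1.04, -0.56, -0.34 and -0.81 at 7 Gy, where the weak replicate 5 of WT 0 Gy fell within the irradiated range. The difference was -1.87 (SE 0.42, adjusted p = 0.0087 by limma) in Il10-/- mice and -1.40 (SE 0.42, adjusted p = 0.036) in WT. The Il10-/- call lay close to the threshold and was lost, with an unadjusted limma p between 0.0013 and 0.0026, when any of Il10-/- 0 Gy replicates 1 and 2 or Il10-/- 7 Gy replicates 1, 2, 3 and 4 was left out. It was also lost with 75th percentile scaling (-1.85), quantile normalization (-2.30), the authors' processed values (-1.55), no filter, and replicates 1 and 2 averaged, so that 12 of 22 alternatives ended it. The WT difference was called without WT 0 Gy replicate 5 (-1.64, adjusted p = 0.0080).

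Urod, uroporphyrinogen decarboxylase, trims the side chains of the ring and fell in irradiated Il10-/- mice. Its signal was 9.76, 9.74, 8.26, 8.11 and 9.64 in Il10-/- 0 Gy and 6.64, 6.42, 6.12, 6.72 and 6.97 in Il10-/- 7 Gy. In WT it was 7.99, 7.93, 8.18, 9.77 and 8.10 at 0 Gy and 7.29, 7.26, 6.97, 7.12 and 6.86 at 7 Gy. The irradiated arrays lay below all unirradiated arrays in both genotypes. The difference was -2.53 (SE 0.37, 95% interval -3.33 to -1.73, adjusted p = 0.00084) in Il10-/- mice. In WT it was -1.29 (SE 0.41, interval -2.17 to -0.42, adjusted p = 0.045) and was not called, but was called after quantile normalization (-1.61). The call in Il10-/- mice was lost after normexp, with a difference of -2.67 (SE 0.86).

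Cpox and Ppox, the oxidases that act before ferrochelatase, were not called. Cpox was 4.31, 4.35, 3.00, 3.77 and 5.09 in Il10-/- 0 Gy and 2.94, 3.16, 1.32, 1.86 and 2.31 in Il10-/- 7 Gy, where the highest irradiated value exceeded the lowest unirradiated value. The difference of -1.78 (SE 0.43) had an adjusted p = 0.013 by limma. It was called without Il10-/- 0 Gy replicate 3 (-2.06) or Il10-/- 7 Gy replicate 2 (-1.99), with the slide as a replicate block (adjusted p = 0.0084), with the tissue covariates (-2.86, SE 0.66, adjusted p = 0.032), with the filter on signal in a whole group, and at a false discovery rate below 5% alone. In WT, Cpox was 3.40, 3.08, 3.78, 5.48 and 2.63 at 0 Gy and 4.09, 3.96, 2.13, 2.00 and 2.48 at 7 Gy, and its difference was -0.74 (SE 0.57, adjusted p = 0.43). Ppox ranged from 4.36 to 7.02 in WT 0 Gy, 4.39 to 5.75 in WT 7 Gy, 4.84 to 6.08 in Il10-/- 0 Gy and 4.11 to 4.93 in Il10-/- 7 Gy. Its differences were -0.48 (SE 0.49, adjusted p = 0.57) in WT and -0.80 (SE 0.27, adjusted p = 0.056) in Il10-/- mice. The sign in WT turned after normexp (0.45, SE 0.48) and with the tissue covariates (0.86, SE 1.31).

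Slc25a37, the iron importer of red cell mitochondria, fell in both genotypes by its distal probe. The distal probe was 13.40, 13.41, 13.19, 15.00 and 12.60 in WT 0 Gy and 9.74, 9.56, 10.53, 11.16 and 10.34 in WT 7 Gy. The values in Il10-/- mice were 13.80, 13.73, 12.53, 12.53 and 14.31 at 0 Gy and 10.15, 10.09, 11.00, 11.14 and 12.20 at 7 Gy. Every irradiated array lay below every unirradiated array. The difference was -3.25 (SE 0.48, interval -4.26 to -2.25, adjusted p = 0.00065) in WT and -2.46 (SE 0.46, interval -3.47 to -1.46, adjusted p = 0.0036) in Il10-/- mice, with 5 of 5 slides lower in each. With liver and heart muscle signals as covariates, the differences were -1.02 (SE 1.21) in WT and -1.73 (SE 0.57) in Il10-/- mice, and neither was called. The call in Il10-/- mice was also lost after normexp (-2.77, SE 0.87) and with replicates 1 and 2 averaged (-2.17, SE 0.52).

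The proximal Slc25a37 probe moved less. It was 8.66, 8.80, 8.54, 10.06 and 8.12 in WT 0 Gy and 7.27, 7.17, 7.90, 8.35 and 8.11 in WT 7 Gy. The values in Il10-/- mice were 9.42, 9.41, 8.45, 8.32 and 9.56 at 0 Gy and 7.74, 7.88, 7.93, 8.55 and 8.77 at 7 Gy, so the groups overlapped in both genotypes. The differences of -1.08 (SE 0.43, adjusted p = 0.11) and -0.86 (SE 0.32, adjusted p = 0.077) were not called, and the WT value became 0.52 (SE 1.17) with the tissue covariates.

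Fech, the last enzyme, was bright on all arrays. Its signal was 13.61, 13.59, 13.50, 14.82 and 13.22 in WT 0 Gy and 11.69, 11.66, 12.59, 13.04 and 12.44 in WT 7 Gy, without overlap. The Il10-/- values were 13.67, 13.66, 13.48, 13.10 and 14.18 at 0 Gy and 12.32, 12.18, 12.55, 13.01 and 13.63 at 7 Gy, where the irradiated replicate 5 reached into the unirradiated range. The difference was -1.47 (SE 0.42, adjusted p = 0.030) in WT and -0.88 (SE 0.31, adjusted p = 0.062) in Il10-/- mice. Neither was called, although the WT difference was called after quantile normalization and when all 4 groups were fitted together. With the tissue covariates the WT value was 0.32 (SE 1.14).

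**Figure D2:**
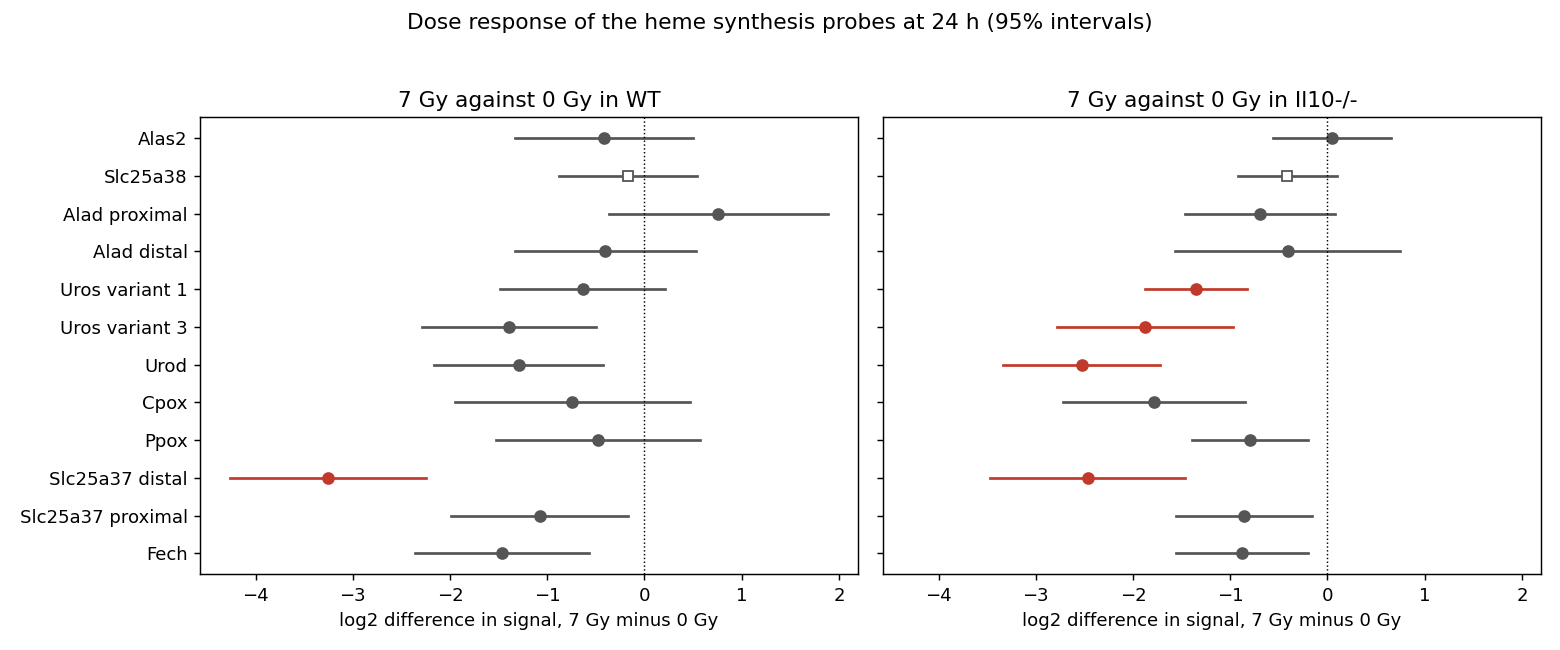
Log2 difference in signal between 7 Gy and 0 Gy (horizontal axis) with 95% intervals from limma for each heme synthesis probe in WT (left) and Il10-/- mice (right), 5 arrays per group. Red marks the called probes (1 in WT, 4 in Il10-/-), and the open square is Slc25a38, fitted without the variation filter.

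Within groups, Fech, Slc25a37 and Ppox tracked Alas2 closely from array to array, and the remaining members less so or not at all. Each member was also set against Alas2 on the same array, which removes the scaling of the array. This comparison was chosen after the values were seen. It comprised 28 exact two-sided permutation tests (14 pairs of probes in 2 genotypes), whose smallest possible p is 0.0079. The tests at this p had an adjusted p of 0.019 (Benjamini-Hochberg over the 28). None passed with replicates 1 and 2 of every group averaged, as given below. A change in such a difference shows unequal change of the pair and not which of them moved. Fech moved down relative to Alas2 by 1.05 (SE 0.16) in WT and by 0.92 (SE 0.07) in Il10-/- mice, with 10 of 10 irradiated arrays outside the unirradiated range of their genotype (exact permutation p = 0.0079 and adjusted p = 0.019 in each). The values without any single array ran from -1.17 to -0.98 in WT and from -0.96 to -0.89 in Il10-/- mice, and after normexp the adjusted p stayed below 0.05 in both genotypes. The distal Slc25a37 probe changed relative to Alas2 by -2.84 (SE 0.25) in WT and -2.51 (SE 0.33) in Il10-/- mice, again without overlap (exact permutation p = 0.0079 in each).

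The change relative to Alas2 in Il10-/- mice was -2.58 (SE 0.36) for Urod, -1.92 (SE 0.42) for Uros variant 3, -1.40 (SE 0.30) for Uros variant 1, -0.91 (SE 0.22) for proximal Slc25a37 and -0.85 (SE 0.18) for Ppox, each without overlap and with an exact permutation p of 0.0079. After normexp the values were -0.12 for Uros variant 3, -0.43 for Uros variant 1 and -0.59 for Ppox, and none of these 3 passed. Uros variant 1 also missed the threshold (adjusted p = 0.056) without Il10-/- 0 Gy replicate 1, 2, 4 or 5. In WT the same changes were -0.88 for Urod (exact permutation p = 0.079), -0.98 for Uros variant 3 (0.032), -0.22 for Uros variant 1 (0.67), -0.66 for proximal Slc25a37 (0.032) and -0.06 for Ppox (0.90), and none passed after adjustment. Without WT 0 Gy replicate 5, Uros variant 3 (-1.22) and proximal Slc25a37 (-0.83) passed, with an adjusted p of 0.017 each. Whether these changes differed between genotypes was not tested.

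The pairs of probes within a gene disagreed for Slc25a37. Its distal probe changed relative to its proximal probe by -2.18 (SE 0.13) in WT and -1.61 (SE 0.25) in Il10-/- mice, with no overlap in either (exact permutation p = 0.0079 in each), and without any single array the values ran from -2.25 to -2.11 and from -1.78 to -1.47. The transcripts read by each probe were not measured separately. The variant 3 probe of Uros changed relative to variant 1 by -0.76 (SE 0.26) in WT (exact permutation p = 0.0079) and by -0.52 (SE 0.35) in Il10-/- mice (0.17), with variant 3 well above background on 1 of 5 irradiated arrays in each genotype. After normexp these values were -0.10 and 0.30. For Alad, the proximal probe changed relative to the distal probe by 1.16 (SE 0.87) in WT and -0.29 (SE 0.65) in Il10-/- mice, and neither passed (exact permutation p = 0.27 and 0.79).

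**Figure D3:**
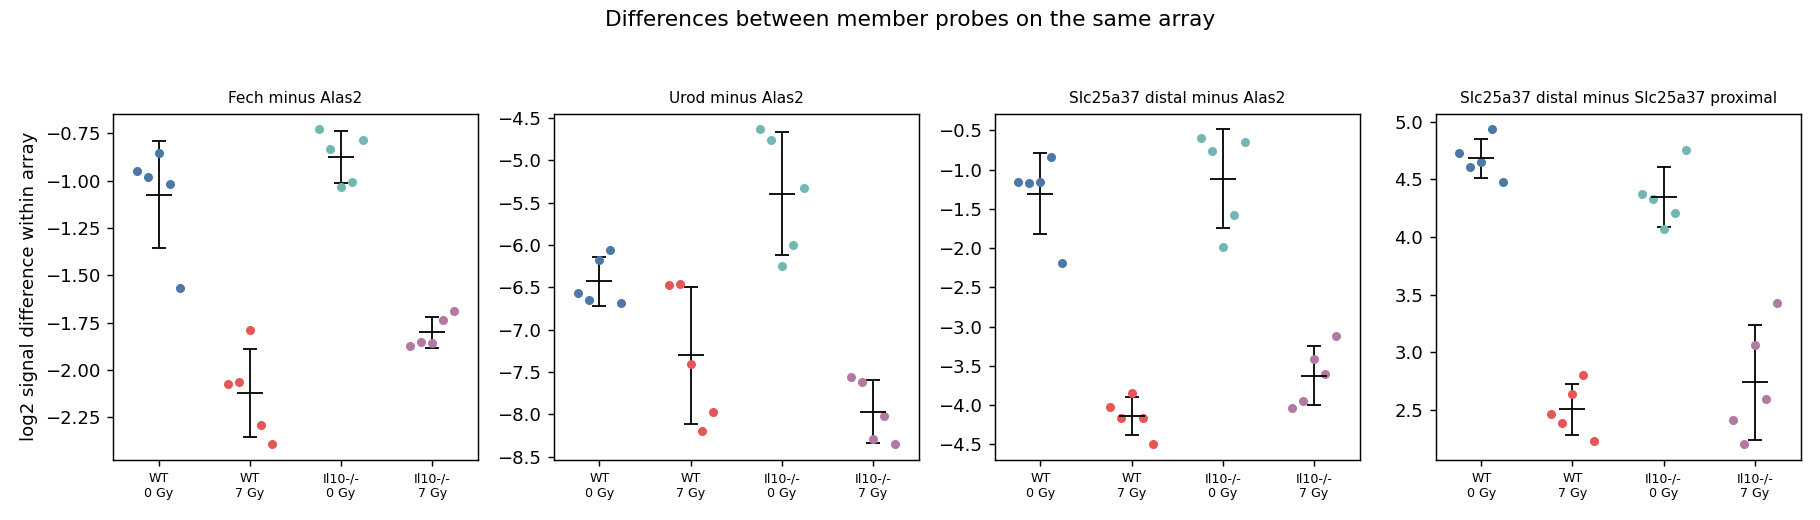
Log2 signal difference between probes on the same array (vertical axis, 1 scale per panel) in the 4 groups, with points for arrays in replicate order and bars for the mean and SD (n = 5). The height of a panel depends on the probes, and only differences between groups are comparable. The irradiated groups lie below the unirradiated groups for Fech and distal Slc25a37 in both genotypes, and for Urod in Il10-/- mice.

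Before irradiation, the genotypes as labelled did not differ in a way that passed the test for any member. Of 11 probes, 0 were called by limma for Il10-/- against WT at 0 Gy (0.845% of all features), and 1 had an unadjusted p below 0.05 (16.1% of all features). That was proximal Alad, which was 0.87 (SE 0.41, adjusted p = 0.31) higher in Il10-/- 0 Gy. The other differences ran from -0.62 (distal Alad) to 0.84 (Uros variant 3), against a median of 0.36 over all features. That median depended on the processing: it was 0.15 without the weak WT 0 Gy replicate 5 and -0.07 with 75th percentile scaling. In the same comparison 4 of 7 neutrophil marker probes were called higher (median 1.90), and their part in these values was not tested. After 7 Gy, 0 of 11 were called (0.00538% of all features), 1 had an unadjusted p below 0.05 (11.1% of all features), and differences ran from -0.63 (distal Alad) to 0.65 (distal Slc25a37). The probe with an unadjusted p below 0.05 was Urod (-0.53, SE 0.22, adjusted p = 0.43).

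The dose response itself was compared between genotypes with all 20 arrays. By limma 0 of 11 member probes were called (0% of all features), and 2 had an unadjusted p below 0.05 (7.00% of all features). As a difference of log2 differences, Il10-/- minus WT, the Urod response was -1.23 (SE 0.54, adjusted p = 0.69) and that of proximal Alad was -1.45 (SE 0.67, adjusted p = 0.69). The remaining values ran from -1.04 for Cpox to 0.79 for distal Slc25a37. The calls of Urod and Uros in Il10-/- mice alone are therefore not shown to be particular to that genotype.

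Within groups, deviations of Fech from its group mean followed those of Alas2 most closely among the members (r = 0.93 over 20 arrays), followed by distal and proximal Slc25a37 (0.83 each) and Ppox (0.72). Proximal Alad ran the other way (-0.44). Over the 66 pairs of member probes r was above 0 in 59, with a median of 0.49. These arrays share the scaling of each array and its blood composition, and the values are descriptions without a test. Probes of all other genes on the array were ranked by r with Alas2 across the 20 arrays, without subtraction of group means. The highest were Oaz1 (r = 0.94), a regulator of polyamine synthesis, Fam89b (0.94), Rapsn (0.93), Zfp956 (0.93) and a transcript known only by its Ensembl identifier (0.93). On that measure r was 0.73 for Fech, 0.68 for proximal and 0.53 for distal Slc25a37, and 0.66 for Ppox. With group means subtracted, r for the genes ranked highest ran from 0.93 to 0.96.

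Other genes of heme and iron handling were counted from lists chosen with earlier results of these data known. The counts were not tested against the shares over all features. Of 10 probes for other genes of heme synthesis and porphyrin transport, 1 was called in each genotype. Over all features, 6.80% were called in WT and 9.16% in Il10-/- mice. The called gene was Fam210b, a mitochondrial protein of red cell precursors, which fell by 2.04 (SE 0.41) in WT and by 2.69 (SE 0.34) in Il10-/- mice. Alas1, the form of aminolevulinate synthase of all other tissues and abundant in liver, had a pair of probes that disagreed. The first was called higher in Il10-/- against WT at 0 Gy (2.09, SE 0.44) and differed by 2.36 (SE 0.77, adjusted p = 0.050) after irradiation of WT, whereas the second differed by -0.69 and -0.05. The liver signals given above differed between the same groups, and their part was not tested.

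Of 12 probes for heme breakdown, export and sensing, 1 was called in WT and 2 in Il10-/- mice (6.80% and 9.16% of all features). Slc48a1, a heme transporter, fell by 2.08 (SE 0.43) in WT and by 1.64 (SE 0.36) in Il10-/- mice, and Blvrb, biliverdin reductase B, fell by 2.01 (SE 0.29) in Il10-/- mice. Of 12 probes for iron supply and iron-sulfur assembly, 1 was called in WT and 3 in Il10-/- mice, against the same shares of all features. Glrx5, a mitochondrial glutaredoxin of iron-sulfur assembly, fell in both genotypes (-2.29, SE 0.44, in WT and -2.53, SE 0.33, in Il10-/- mice). Tfrc, the transferrin receptor (-2.40, SE 0.46), and Iscu, an iron-sulfur scaffold (-1.51, SE 0.30), fell in Il10-/- mice. The median difference of these 3 lists was 0.40, 0.73 and 0.04 in WT and -0.27, 0.13 and -0.35 in Il10-/- mice.

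Markers of red cell precursors were called lower more often than higher. Of 25 probes for red cell precursor genes, 11 were called lower and 2 higher in WT, and 15 lower and 0 higher in Il10-/- mice, with medians of -1.17 and -1.79. Over all features, 2.32% were called lower and 4.48% higher in WT, and 5.87% and 3.29% in Il10-/- mice. Among the falls in Il10-/- mice were those of Add2 (-3.48, SE 0.47) and Ank1 (-3.35, SE 0.53), which belong to the skeleton beneath the red cell membrane. Both were also called lower in WT, Add2 by -3.09 (SE 0.49) and Ank1 by -2.64 (SE 0.62). The genes called higher in WT were Epor, the erythropoietin receptor (1.76, SE 0.40), and Tal1, a transcription factor of red cell precursors (1.73, SE 0.40). Of 5 globin probes, 0 were called in either genotype by limma, and 0 had an unadjusted p below 0.05 (29.1% and 35.5% of all features), with medians of -0.07 and -0.14. These probes read the globin transcripts that the depletion had left, and globin in undepleted blood RNA was not measured.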

How the data were processed

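For each of 20 arrays (whole blood RNA, 5 per group) the authors deposited the output of Agilent's Feature Extraction software, named as version 10.7 in the submitters' processing notes and as 12.0.2.2 in the file headers. From it, the processed signal was taken, a deposited intensity for each spot after subtraction of background and spatial detrending, with no scaling between arrays. Processed log2 values, deposited by the authors as well, served as an alternative. Non-uniform outlier spots were dropped, intensities were converted to log2, spots of a probe were averaged, and each array's median over 39429 probes was subtracted.

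Probes marked on 25% or more of the arrays, or differing 1.5-fold or more from their median on fewer than 20% of them, were removed, leaving 18587 features. Groups come from the sample records. Each comparison of 2 groups was fitted with limma 3.58.1 in R 4.3.3 on its 10 arrays, and the difference between dose responses on 20. The code was tested on simulated data, and figures and motif counts used Python 3.11.15. A feature was called at p below 0.001 and a Benjamini-Hochberg false discovery rate below 10%. Alternatives were other scalings, filters, backgrounds, fits and leaving out arrays. The number of arrays sets the precision.

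All 9 genes were described with all of their probes. For other lists, called genes were named (the 3 largest rises and falls where more than 6 were called), with Alas1 always and the 5 genes most correlated with Alas2. Some genes that this rule names are not reported here. The members and lists were chosen with earlier results of these data known. Lists of B cell, T cell, neutrophil and platelet markers were also counted. In WT, 7 of 8 B cell probes and 2 of 8 T cell probes were called lower, 0 of 7 neutrophil probes were called and 1 of 10 platelet probes was called higher. In Il10-/- mice the counts were 7 of 8, 3 of 8, 0 of 7 and 0 of 10. Of the 10 platelet probes, 0 lay below 0 in either genotype, with medians of 1.27 in WT and 1.20 in Il10-/- mice. Of them, 8 in WT and 7 in Il10-/- mice had an unadjusted limma p below 0.05 (29.1% and 35.5% of all features). The neutrophil medians were -0.07 and -0.80. Over all features, 2.32% were called lower and 4.48% higher in WT, and 5.87% and 3.29% in Il10-/- mice.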

Additional observations from a re-analysis of the deposited data

Results flagged for a closer look

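Of 48 groups of 5 arrays (12 probes in 4 groups), 5 held an array whose gap to its nearest neighbour exceeded Dixon's 95% limit for 5 values, and chance alone gives about 1 in 20 such groups. WT 0 Gy replicate 4 was the highest of its group for Urod (9.77) and Fech (14.82). The lowest of their groups were WT 0 Gy replicate 5 for Slc25a38 (4.03), WT 7 Gy replicate 3 for Slc25a38 (4.31) and Il10-/- 0 Gy replicate 4 for distal Alad (-1.49). Leaving out WT 0 Gy replicate 4 changed no call of Urod or Fech in WT.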

How the results depend on the processing

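Counts of called member probes for both genotype comparisons and for the difference between dose responses were 0 under every alternative run. The 1 call in WT became 3 after quantile normalization, 2 with the authors' processed values, 2 with all 4 groups in 1 fit, 4 at a false discovery rate below 5% alone, 0 with liver and heart muscle signals as covariates, and 2 without the 2 weakest arrays (an alternative added after the data were seen). Leaving out each array in turn gave 1 to 2, and WT 0 Gy replicate 5 gave the 2. The 4 calls in Il10-/- mice became 0 after normexp, 2 with replicates 1 and 2 averaged, 3 with 75th percentile scaling, quantile normalization, the authors' processed values, no filter, the tissue covariates or the 2 weakest arrays left out, and 5 with the filter on signal in a whole group or at the 5% rate, and leaving out each array in turn gave 3 to 5. The cause of these moves was not tested. The median of the member probes minus that of all features stayed below 0 in both dose responses under these alternatives (-1.09 to -0.19 in WT and -1.502 to -0.56 in Il10-/- mice, log2 values). Over all features, the 1263 calls in WT became 261 after normexp, 2119 with all 4 groups in 1 fit, 754 with replicates 1 and 2 averaged, 13 with the tissue covariates and 2712 at the 5% rate. The 1702 calls in Il10-/- mice became 0, 815 and 521 after normexp, averaging and the covariates, 4053 at the 5% rate and 1133 without Il10-/- 0 Gy replicate 1. The 157 calls between genotypes at 0 Gy became 0 after normexp, 43 with 75th percentile scaling, 25 after quantile normalization, 57 with the authors' values, 66 with no filter, 76 at the 5% rate, 384 with the block and 47 without WT 0 Gy replicate 4. With the slide as a replicate block, 1 member probe was called in WT and 5 in Il10-/- mice, Cpox being added. The labels do not say that replicate numbers pair the mice, and deviations of arrays of 1 slide correlated from -0.66 to 0.68, not above 0.1 in every pair. For the differences within arrays, averaging replicates 1 and 2 leaves 4 arrays a group and a smallest exact permutation p of 0.029, and those at it had an adjusted p of 0.067, so none passed. Depth is unknown for arrays. The dim probes (distal Alad, Uros and Cpox) were those not well above background on 1 or more arrays.

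The following uncalled differences changed sign, and the cause was not tested. After normexp, the difference for 7 Gy in WT was 0.55 for Alas2, 0.0389 for Cpox, 0.45 for Ppox, 0.62 for Slc25a38 and -0.57 for distal Alad minus Alas2. In Il10-/- mice it was -0.27 for Alas2, 0.27 for distal Alad minus Alas2 and 0.30 for Uros variant 3 minus variant 1. For Il10-/- against WT at 0 Gy it was 0.0645 for Alas2, 0.27 for Ppox, 0.22 for Fech and 0.0695 for distal Slc25a37. At 7 Gy it was -0.76 for Alas2, -0.43 for Fech, -0.50 for Slc25a38, -0.24 for distal and -0.46 for proximal Slc25a37. Between dose responses it was -0.82 for Alas2, -0.65 for Fech, -0.31 for distal and -0.88 for proximal Slc25a37.

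With the tissue covariates, the difference for 7 Gy in WT was 1.73 for Alas2, 0.86 for Ppox, 0.32 for Fech and 0.52 for proximal Slc25a37, with SE of 1.11 to 1.31. At 0 Gy between genotypes it was 0.21 for distal Alad, 0.22 for Ppox, 0.24 for Fech and 0.68 for distal Slc25a37, and between dose responses -0.0938 for distal and -0.32 for proximal Slc25a37. Scaling to the 75th percentile gave -0.0673 for Uros variant 1 and -0.15 for proximal Slc25a37 between genotypes at 0 Gy, and 0.25 for distal Alad between dose responses. Quantile normalization gave -0.14 and -0.26 for the same probes at 0 Gy, -0.18 for Uros variant 3 at 7 Gy, and 0.0032 for distal Alad and 0.0853 for Ppox between dose responses. The authors' processed values gave -0.0846 for proximal Slc25a37 at 0 Gy and 0.29 for distal Alad between dose responses. Without the 2 weakest arrays, distal Alad was 0.21 between dose responses and -0.0679 relative to Alas2 in WT.

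Leaving out single arrays turned the sign of Alas2 after 7 Gy in Il10-/- mice (-0.15 to 0.17) and between genotypes at 7 Gy (-0.0612 to 0.36), of Ppox (-0.46 to 0.20), Fech (-0.27 to 0.14) and distal Slc25a37 (-0.37 to 0.23) between genotypes at 0 Gy, and of distal Alad (-0.60 to 0.27) and proximal Slc25a37 (-0.0877 to 0.40) between dose responses. Within arrays it did so in WT relative to Alas2 for distal Alad (-0.27 to 0.34), Uros variant 1 (-0.46 to 0.0506), Cpox (-0.77 to 0.14) and Ppox (-0.36 to 0.13), and in Il10-/- mice for proximal minus distal Alad (-0.60 to 0.29).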
